A study of Mus musculus with 2 samples.

Results

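The genes of platelet-derived growth factor (PDGF) and fibroblast growth factor (FGF) signalling were examined in young visceral adipose tissue (VAT), to ask which cell types carried the ligands and which the receptors. The 10 genes, chosen by symbol from the 56980 genes counted, were the PDGF ligands Pdgfa, Pdgfb, Pdgfc and Pdgfd, the PDGF receptors Pdgfra and Pdgfrb, the FGF ligands Fgf1, Fgf2 and Fgf10, and the FGF receptor Fgfr1. The study compared white fat depots of young and old mice by single-nucleus RNA sequencing (snRNA-seq), and the libraries used here were its young VAT replicates. These were gonadal fat from 2 female C57BL/6J mice aged 2 months, with no treatment named and 1 library per mouse. Since these were the only libraries analysed here, no comparison of ages or depots could be made. The labels name the cell type as adipocytes and the platform as 10x Genomics, whereas the protocol describes nuclei of whole tissue captured on a Singleron chip, and nuclei of several cell types were found.

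PDGF ligands are secreted dimers that activate receptor tyrosine kinases on neighbouring cells. PDGFRA, which binds PDGF-A, PDGF-B and PDGF-C chains, marks the fibro-adipogenic progenitors (FAPs) of fat, and PDGFRB, which binds PDGF-B and PDGF-D chains, marks the pericytes and smooth muscle cells that wrap vessels. FGF ligands bind their receptors together with heparan sulphate. FGF1 and FGF10 are known for their roles in the growth and remodelling of white fat, FGF2 is a broad mitogen, and FGFR1 is the receptor through which FGF21 acts on adipocytes with the co-receptor beta-Klotho.

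After filtering, 15058 of 24492 called nuclei were kept, 2833 in replicate 1 and 12225 in replicate 2, with median depths of 2221 and 2726 UMIs (unique molecular identifiers, which count single RNA molecules) in a nucleus. Mitochondrial UMIs made up a median of 6.20% and 0.621%, and 27 kept barcodes occurred in both libraries. The nuclei formed 9 clusters, which were drawn without the 10 genes or the other genes of their pathway and named from separate markers. Adipocyte-like nuclei numbered 1970 and 6943 in replicates 1 and 2, FAP-like nuclei 251 and 1319, mesothelial-like nuclei 251 and 2140, endothelial-like nuclei 82 and 513, mural-like nuclei (smooth muscle and pericytes) 23 and 170, and immune-like nuclei 256 and 1140. Among adipocyte-like nuclei, 319 and 2137 formed a subcluster of lower depth (median 1724 UMIs, against 5131 in the rest) in which 6 endothelial markers were higher than in the rest. This subcluster had Plin1 at 650 and 535 CPM (UMIs of a gene scaled to a fixed total of UMIs), Pdgfb at 14.3 and 5.84 CPM (2.04 and 0.853 in the rest) and Fgf10 at 105.7 and 152.9 CPM (222.8 and 233.2 in the rest). Marker levels in replicates 1 and 2 included Plin1 at 911 and 848 CPM in adipocyte-like nuclei, Upk3b at 1612 and 1115 CPM in mesothelial-like nuclei and Myh11 at 1891 and 1438 CPM in mural-like nuclei. Dcn, a fibroblast marker, was at 7454 and 3648 CPM in FAP-like nuclei, with mesothelial-like nuclei close behind at 6509 and 3333 CPM. Col3a1, another FAP marker, was higher in mesothelial-like (1439 and 1723 CPM) than in FAP-like nuclei (1347 and 942 CPM). The 11 FAP markers summed to 16650 and 8898 CPM in FAP-like and to 10200 and 7188 CPM in mesothelial-like nuclei. Adipocyte markers were seen in every type, and 0 of the 10 listed were absent from any of them. Their sum in the other types ranged from 19.6% to 39.0% of the adipocyte-like level, and this value is given below where it touches a result. Ghr made up 55.8% and 70.1% of that sum in adipocyte-like nuclei, and without Ghr, a split made after the values had been seen, the range was 22.8% to 58.1%. Single markers differed more, and in endothelial-like nuclei Adipoq was at 64.4% and 176% and Pnpla2 at 85.5% and 219% of the adipocyte-like level, so that 2 of the 10 adipocyte markers were higher there than in adipocyte-like nuclei of replicate 2.

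Values are given as CPM of all UMIs of a cell type in replicate 1 and then replicate 2. UMIs were summed per library and cell type, and edgeR's quasi-likelihood test, with the library as a block, set each type against the mean of the others, under Benjamini-Hochberg adjustment over 13901 genes. Every adjusted p below is from this test unless another is named, and differences are log2 fold changes with their standard errors. All 10 genes passed the filter on low counts, and all 10 were higher in at least 1 cell type, against 59.2% of all genes tested. Of the 60 combinations of gene and cell type, 17 were higher, against 12.6% over all genes. Counts of 5 for FAP-like nuclei (background 10.4%), 3 for mesothelial-like (13%), 3 for immune-like (15.5%), 2 for endothelial-like (9.2%), 2 for mural-like (4.57%) and 2 for adipocyte-like nuclei (23.1%) made up the 17. Lower levels were most frequent in adipocyte-like nuclei, with 6 of the 10 genes (background 24.3%), and they were found for 5 genes in immune-like (9.72%), 4 in FAP-like (6.91%), 3 in mesothelial-like (6.17%), 3 in endothelial-like (3.93%) and 2 in mural-like nuclei (2.63%).

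**Figure D1:**
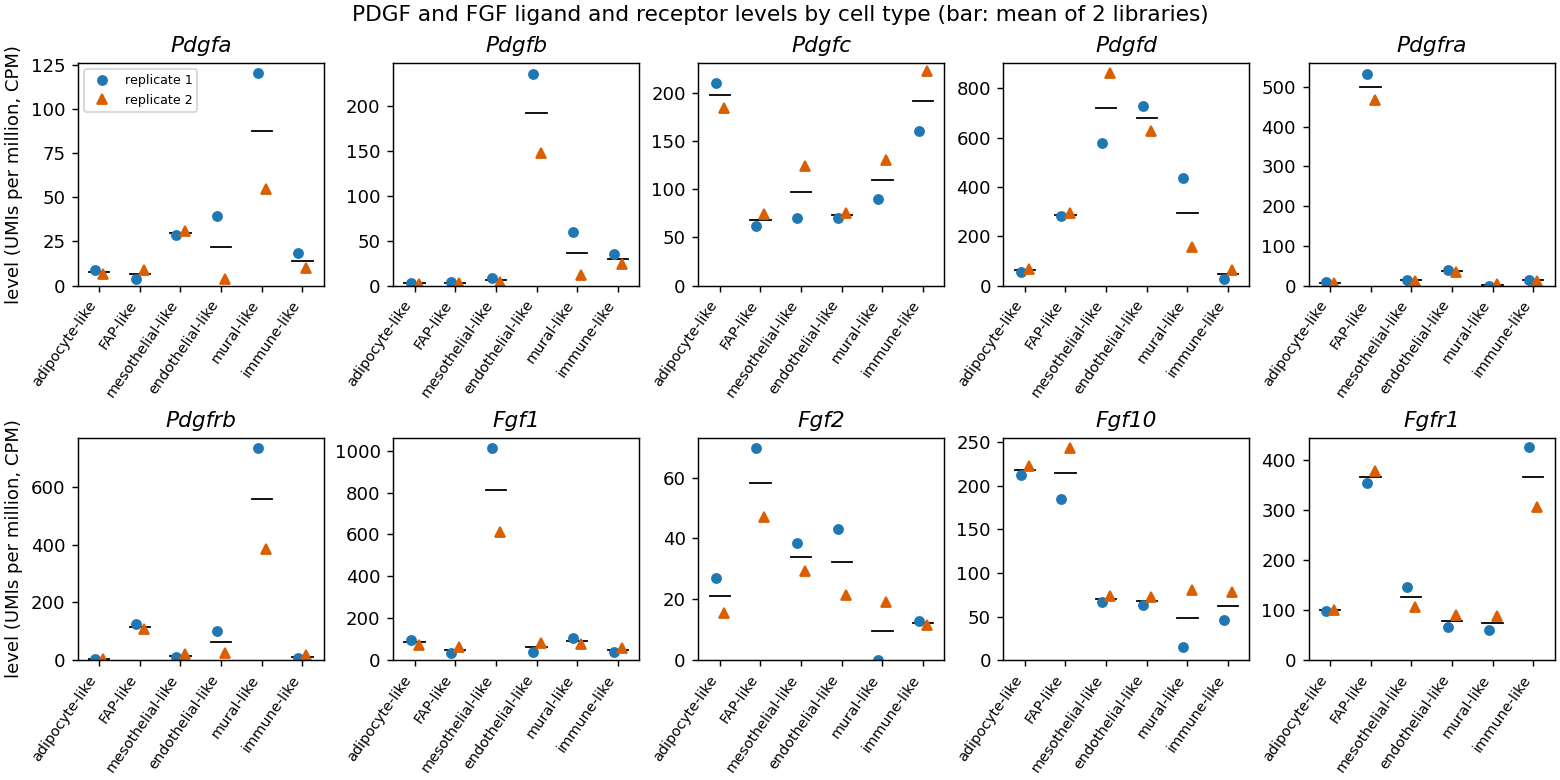
Level of each gene (CPM, linear axis, a scale of its own per panel) in the 6 cell types, with a circle for replicate 1, a triangle for replicate 2 and a bar for their mean. Pdgfra reached 533 and 466 CPM in FAP-like nuclei and no more than 39.3 CPM in another type, whereas Pdgfc and Fgf10 had more than 1 type near their highest level.

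**Figure D2:**
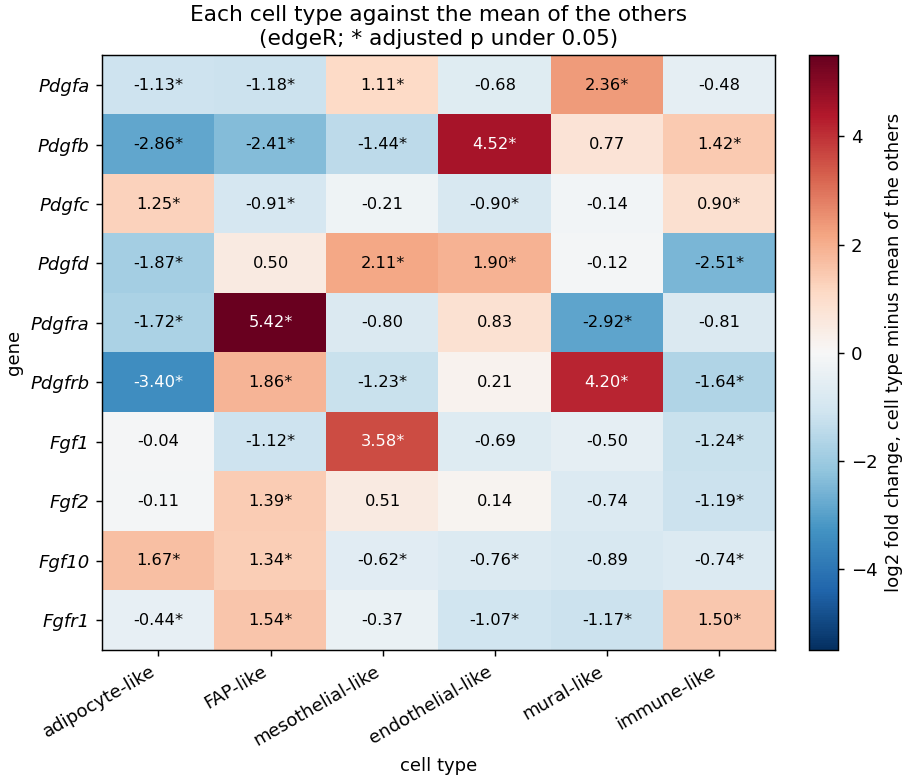
Log2 fold change of each gene (rows) in each cell type (columns) against the mean of the other types, with an asterisk where the adjusted p from edgeR was under 0.05. The values ran from -3.40 for Pdgfrb in adipocyte-like nuclei to 5.42 for Pdgfra in FAP-like nuclei.

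Pdgfb encodes the ligand that recruits pericytes to vessels, and its highest level was that of endothelial-like nuclei, at 236 and 147 CPM. In mural-like nuclei it was at 60 and 11.9 CPM and in immune-like nuclei at 34.6 and 24.5 CPM, while FAP-like and adipocyte-like nuclei held no more than 3.67 CPM in a library. Both endothelial-like libraries thus lay above all 10 other values. Pdgfb was higher in endothelial-like nuclei by 4.52 ± 0.24 (adjusted p = 1.17e-21) and in immune-like nuclei by 1.42 ± 0.30 (adjusted p = 0.000149), and it was lower in adipocyte-like, FAP-like and mesothelial-like nuclei. The endothelial-like level also exceeded that of mural-like nuclei, the next by mean CPM, by 3.12 ± 0.49 (adjusted p = 2.8e-06), and that of immune-like nuclei, the next in the fit, by 2.58 ± 0.33 (adjusted p = 7.61e-09). The mural-like levels rested on 4 and 5 UMIs. At a mitochondrial limit of 5%, where mural-like nuclei could not be fitted, the fold in endothelial-like nuclei was 5.18. After each nucleus was thinned to 1000 UMIs, 12.2% (6.01 to 21.3%) and 15.4% (12.4 to 18.8%) of endothelial-like nuclei had a Pdgfb UMI, against 0.558% and 0.288% of adipocyte-like nuclei. Before thinning these shares were 28.0% and 24.6% against 0.914% and 0.691%, with median depths of 2032 and 1816 UMIs in endothelial-like and 2494 and 4288 UMIs in adipocyte-like nuclei. These and all later intervals are exact 95% intervals by the method of Clopper and Pearson, and they cover only the counting error.

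Pdgfd encodes a ligand of PDGFRB that is secreted in a latent form and activated by proteolysis, and it was highest in a pair of cell types. It was at 577 and 861 CPM in mesothelial-like nuclei and, among endothelial-like nuclei, at 730 and 628 CPM, and the values of these types overlapped. It was at 435 and 156 CPM in mural-like nuclei, at 280 and 293 CPM in FAP-like nuclei, and at no more than 66.7 CPM in adipocyte-like or immune-like nuclei. Pdgfd was higher in mesothelial-like nuclei by 2.11 ± 0.17 (adjusted p = 3.65e-15) and in endothelial-like nuclei by 1.90 ± 0.18 (adjusted p = 1.81e-12). The difference between these types was 0.18 ± 0.24 (adjusted p = 0.728), and endothelial-like nuclei were above mural-like nuclei by 1.68 ± 0.30 (adjusted p = 4.81e-05). In thinned nuclei, 35.9% and 46.5% of mesothelial-like and 37.8% and 39.0% of endothelial-like nuclei had a Pdgfd UMI, and 1.17% and 4.65% of immune-like nuclei. The unthinned shares were 48.2% and 64.8%, 56.1% and 50.7%, and 3.13% and 8.51%, in the same order. FAP-like nuclei did not pass for Pdgfd (0.50 ± 0.19, adjusted p = 0.0646), although they passed at the finer clustering resolution of 0.3 and after removal of the nuclei that scored highest as doublets.

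Pdgfd was higher in both mesothelial-like and endothelial-like nuclei, and the 250 bases before its annotated start are shown so that its promoter can be read beside these levels. The sequence is 5' to 3' on the gene's plus strand, chr9:6167990-6168239, read from GRCm39 with the GENCODE vM39 start, and it overlaps no exon. Capitals mark matches, on either strand, to the TATA box letters TATAAA, the CCAAT box letters CCAAT and the GC box letters GGGCGG.
Pdgfd: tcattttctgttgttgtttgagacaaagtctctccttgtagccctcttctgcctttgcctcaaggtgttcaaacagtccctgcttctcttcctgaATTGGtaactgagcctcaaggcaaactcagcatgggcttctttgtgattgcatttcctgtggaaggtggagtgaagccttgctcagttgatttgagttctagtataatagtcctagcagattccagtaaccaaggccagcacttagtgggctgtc
The sequence held CCAAT on the minus strand, starting 155 bases before the start. Over 21770 promoters of this length, 11.9% held TATAAA, 36.5% CCAAT and 36.3% GGGCGG on either strand. The GC content was 46.0%, beside a median of 53.2%. A match describes these letters and is no test of binding.

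Pdgfc encodes a ligand of PDGFRA that is also secreted in a latent form, and its highest levels were in adipocyte-like nuclei, at 211 and 185 CPM, and in immune-like nuclei, at 160 and 223 CPM. The values of these types overlapped, and both lay above the 130 CPM of mural-like nuclei in replicate 2, the next value in order. The lowest levels were in FAP-like nuclei, at 62.3 and 74.0 CPM, and in endothelial-like nuclei, at 70.7 and 75.1 CPM, and these overlapped with each other and with the 70.1 CPM of mesothelial-like nuclei in replicate 1. Pdgfc was higher in adipocyte-like nuclei by 1.25 ± 0.16 (adjusted p = 3e-09) and in immune-like nuclei by 0.90 ± 0.17 (adjusted p = 3.34e-05), and lower in FAP-like nuclei by -0.91 ± 0.20 (adjusted p = 0.000546) and in endothelial-like nuclei by -0.90 ± 0.23 (adjusted p = 0.00331). Adipocyte-like and immune-like nuclei did not differ from each other beyond their spread (0.29 ± 0.21, adjusted p = 0.268). Within the immune-like nuclei the level was uneven. Their largest cluster, which carried macrophage markers and held 144 and 753 nuclei, had Pdgfc at 282 and 303 CPM, above both adipocyte-like libraries. The immune cluster with T, NK and dendritic cell markers, of 83 and 342 nuclei, had Pdgfc at 5.82 and 62.5 CPM. A small immune cluster, also named from macrophage markers, was lower than the largest cluster. At the resolution of 0.3 it held 29 and 45 nuclei, with Pdgfc at 26.4 and 95.9 CPM. These clusters were compared after their values had been seen, so no test is given.

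Pdgfa, a ligand of PDGFRA, was sparse, with 102 and 478 UMIs over all kept nuclei of each library. It was at 120 and 54.5 CPM in mural-like nuclei and at 28.4 and 31.0 CPM in mesothelial-like nuclei. In endothelial-like nuclei it was at 39.3 and 3.83 CPM, and this type overlapped with the mesothelial-like values, whereas both mural-like values lay above all others. Pdgfa was higher in mural-like nuclei by 2.36 ± 0.46 (adjusted p = 0.000207) and in mesothelial-like nuclei by 1.11 ± 0.32 (adjusted p = 0.009), and the step between these types did not pass (1.04 ± 0.50, adjusted p = 0.214). The mural-like value of replicate 1 rested on 8 UMIs in 23 nuclei. The mesothelial-like call was lost with DESeq2 and without the library block, and mural-like nuclei could not be fitted at a mitochondrial limit of 5%.

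Fgf1, a ligand of all FGF receptors that is induced in visceral fat by a high-fat diet, had its highest level in mesothelial-like nuclei, at 1013 and 613 CPM. All other values lay between 34.8 and 105 CPM. Among these, both adipocyte-like and both mural-like values lay above those of FAP-like and immune-like nuclei, while endothelial-like values overlapped with all 4 types. The mural-like differences from FAP-like (0.52 ± 0.38, adjusted p = 0.555) and immune-like nuclei (0.62 ± 0.39, adjusted p = 0.339) did not pass. Fgf1 was higher in mesothelial-like nuclei by 3.58 ± 0.17 (adjusted p = 4.11e-24), with 4.26 in replicate 1 alone and 3.07 in replicate 2 alone, and it exceeded mural-like nuclei, the next by mean CPM, by 3.40 ± 0.33 (adjusted p = 1.86e-11) and adipocyte-like nuclei, the next in the fit, by 3.02 ± 0.24 (adjusted p = 3.35e-15). In thinned nuclei, 51.0% (44.6 to 57.3%) and 40.8% (38.7 to 42.9%) of mesothelial-like nuclei had an Fgf1 UMI, against 3.52% and 4.91% of immune-like nuclei. Unthinned shares were 70.5% and 59.0% against 7.42% and 8.86%, at median depths of 1816 and 1906 UMIs against 1624 and 1866 UMIs. Adipocyte-like nuclei had Fgf1 at 96.9 and 74.2 CPM and did not pass in either direction against the mean of the others (-0.04 ± 0.20, adjusted p = 0.879), but they exceeded immune-like nuclei by 0.99 ± 0.27 (adjusted p = 0.00215).

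Fgf10, a mesenchymal ligand that signals mainly through FGFR2 and is required for the formation of white fat, was at 213 and 223 CPM in adipocyte-like nuclei and at 185 and 244 CPM in FAP-like nuclei. The values of the adipocyte-like and FAP-like nuclei overlapped, and all 4 lay above the 80.6 CPM of mural-like nuclei in replicate 2. Fgf10 was higher in adipocyte-like nuclei by 1.67 ± 0.16 (adjusted p = 1.13e-12) and in FAP-like nuclei by 1.34 ± 0.17 (adjusted p = 1.41e-08), and FAP-like nuclei exceeded mesothelial-like nuclei by 1.64 ± 0.24 (adjusted p = 3.45e-07). In thinned nuclei, 15.6% and 15.7% of adipocyte-like and 13.5% and 17.5% of FAP-like nuclei had a Fgf10 UMI, against 3.98% and 4.91% of mesothelial-like nuclei. Unthinned, these shares were 31.1% and 42.1%, 19.1% and 30.2%, and 7.97% and 10.2%.

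Fgf2, the basic FGF, was at 69.7 and 47.1 CPM in FAP-like nuclei, and the next value in order was 43.2 CPM in endothelial-like nuclei of replicate 1. It was higher in FAP-like nuclei by 1.39 ± 0.26 (adjusted p = 3.39e-05), and the step to mesothelial-like nuclei, at 38.4 and 29.3 CPM, did not pass (0.73 ± 0.32, adjusted p = 0.141). In mural-like nuclei of replicate 1 no Fgf2 UMI was found, where a count of 0 allows up to 45.0 CPM. The fold in replicate 1 alone was 2.98 and depends on the prior count given to that zero, and it was 1.33 in replicate 2 alone.

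Among the receptors, Pdgfra was at 533 and 466 CPM in FAP-like nuclei, and in every other type it was at 39.3 CPM or less. Both FAP-like values thus stood apart from all 10 others. Pdgfra was higher in FAP-like nuclei by 5.42 ± 0.17 (adjusted p = 7.24e-31) and exceeded endothelial-like nuclei, at 39.3 and 33.7 CPM, by 3.82 ± 0.27 (adjusted p = 1.69e-16). In thinned nuclei, 35.1% (29.2 to 41.3%) and 35.0% (32.4 to 37.6%) of FAP-like nuclei had a Pdgfra UMI, against 0.914% and 1.01% of adipocyte-like nuclei. Unthinned, 51.0% and 54.6% of FAP-like and 2.49% and 2.55% of adipocyte-like nuclei had one, at median depths of 1758 and 2087 against 2494 and 4288 UMIs. Mural-like nuclei held 0 UMIs in replicate 1 and 2 UMIs in replicate 2, so the fold of 6.52 in replicate 1 alone depends on the prior count, and it was 5.40 in replicate 2 alone.

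Pdgfrb was at 736 and 386 CPM in mural-like nuclei and at 125 and 108 CPM in FAP-like nuclei. Both mural-like values lay above both FAP-like values, and these lay above all others, of which 102 CPM in endothelial-like nuclei of replicate 1 came nearest. Pdgfrb was higher in mural-like nuclei by 4.20 ± 0.23 (adjusted p = 5.98e-21) and in FAP-like nuclei by 1.86 ± 0.21 (adjusted p = 3.38e-10), and the step between these types was 1.95 ± 0.29 (adjusted p = 8.21e-07). In thinned nuclei, 52.2% (30.6 to 73.2%) and 30% (23.2 to 37.5%) of mural-like nuclei had a Pdgfrb UMI, beside 13.1% and 10.8% of FAP-like and 0.711% and 0.619% of adipocyte-like nuclei. Unthinned, these shares were 65.2% and 39.4%, 18.7% and 20.4%, and 1.73% and 1.77%. In endothelial-like nuclei, the Pdgfrb level was 102 and 26.1 CPM, the largest ratio between the libraries among the 43 combinations with at least 10 UMIs in each. Over those 43, the median ratio was 1.37 and 6 exceeded 2. The 8 pericyte markers moved with it, and summed to 648 and 199 CPM in endothelial-like nuclei beside 4068 and 2628 CPM in mural-like nuclei, with 0 markers at 0 in these types. Rgs5, a pericyte marker, stood at 259 and 48.3 CPM there. The part of pericyte RNA in this value was not tested. Among mural-like nuclei of replicate 2, Pdgfrb was at 674 CPM in the subcluster of 24 nuclei with pericyte markers and at 19.5 CPM in that of 36 nuclei with smooth muscle markers, and the largest mural subcluster, of 20 and 110 nuclei, held 938 and 480 CPM. In that subcluster, adipocyte markers led the others in the comparison within mural-like nuclei, and they summed to 27.3% and 41.3% of the adipocyte-like level.

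Fgfr1 was at 354 and 377 CPM in FAP-like nuclei and at 426 and 306 CPM in immune-like nuclei. The values of these types overlapped, and the next value in order was 145 CPM in mesothelial-like nuclei of replicate 1. Fgfr1 was higher in FAP-like nuclei by 1.54 ± 0.16 (adjusted p = 4.96e-11) and in immune-like nuclei by 1.5 ± 0.17 (adjusted p = 1.05e-10), which did not differ from each other beyond their spread (-0.03 ± 0.22, adjusted p = 0.952). It was lower in mural-like nuclei by -1.17 ± 0.28 (adjusted p = 0.004) and in endothelial-like nuclei by -1.07 ± 0.22 (adjusted p = 0.000275). Adipocyte-like nuclei, at 98.0 and 100.4 CPM, were also lower, by -0.44 ± 0.18 (adjusted p = 0.0357). Both adipocyte-like values lay above those of endothelial-like and mural-like nuclei. The steps to endothelial-like (0.53 ± 0.25, adjusted p = 0.106) and mural-like nuclei (0.61 ± 0.32, adjusted p = 0.187) did not pass. In thinned nuclei, 27.1% and 29.2% of FAP-like, 27.0% and 22.4% of immune-like and 8.73% and 8.90% of adipocyte-like nuclei had an Fgfr1 UMI, and unthinned 42.2% and 48.8%, 37.9% and 38.4%, and 21.4% and 31.4%. Among immune-like nuclei, the largest cluster with macrophage markers had Fgfr1 at 325 and 329 CPM. A small cluster of 29 and 45 nuclei, which was also named from macrophage markers (4 of them) and was led by Saa3, Alox15 and Prg4, had it at 1108 and 343 CPM. The subcluster with T and NK cell markers, of 12 and 91 nuclei, held 0 and 5 UMIs of Fgfr1. These subsets were picked after their values had been seen and are described without a test.

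The study examined the exchange of signals between adipocytes and FAPs, and also that of adipocytes with immune, mesothelial and endothelial cells. Here, the ligands and receptors were set beside each other for FAP-like and adipocyte-like nuclei. Between them, 7 of the 10 genes differed, against 35.1% of all genes. Of these, 5 were higher in FAP-like nuclei (background 18.4%) and 2 in adipocyte-like nuclei (background 16.7%). All 3 receptors were on the FAP-like side, Pdgfra by 5.95 ± 0.25 (adjusted p = 4.63e-25), Pdgfrb by 4.39 ± 0.30 (adjusted p = 1.46e-17) and Fgfr1 by 1.65 ± 0.21 (adjusted p = 7.69e-09). The ligands were divided. Pdgfc, a ligand of PDGFRA, was higher in adipocyte-like nuclei, with a difference of FAP-like minus adipocyte-like nuclei of -1.80 ± 0.23 (adjusted p = 5.52e-09), whereas Pdgfd, a ligand of PDGFRB, was higher in FAP-like nuclei by 1.98 ± 0.25 (adjusted p = 2.67e-09). At the resolution of 0.3, where part of these adipocyte-like nuclei fell into unnamed clusters, the Pdgfd difference was 3.00 ± 0.27 (adjusted p = 3.89e-13). Fgf1 was higher in adipocyte-like nuclei, with a difference of -0.90 ± 0.26 (adjusted p = 0.00542), which was -1.65 in replicate 1 alone and -0.56 in replicate 2 alone. Fgf2 was higher in FAP-like nuclei by 1.25 ± 0.30 (adjusted p = 0.000531). Fgf10 differed by -0.27 ± 0.21 (adjusted p = 0.353), Pdgfb by 0.38 ± 0.57 (adjusted p = 0.657) and Pdgfa by -0.04 ± 0.47 (adjusted p = 0.956), none of which passed. Clustering with 15 components gave Pdgfb a difference of 1.89 ± 0.43 (adjusted p = 0.000361). With the 10 genes and their pathway kept as features it was 2.52 ± 0.48 (adjusted p = 8.95e-06), and Fgf10 then passed at -0.57 ± 0.22 (adjusted p = 0.0282). In that clustering the adipocyte-like class held 1575 and 4441 nuclei, and a cluster of 401 and 2521 nuclei stayed unnamed, whereas with 15 components the class held 1962 and 6802. Without the library block, the difference was -1.01 ± 0.40 for Fgf1 (adjusted p = 0.0948) and 1.20 ± 0.46 for Fgf2 (adjusted p = 0.0849), and 5 of the 10 genes remained. Over the other alternatives, the adjusted p of Fgf1 ranged from 5.77e-05 to 0.113 and that of Fgf2 from 0.000297 to 0.072.

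**Figure D3:**
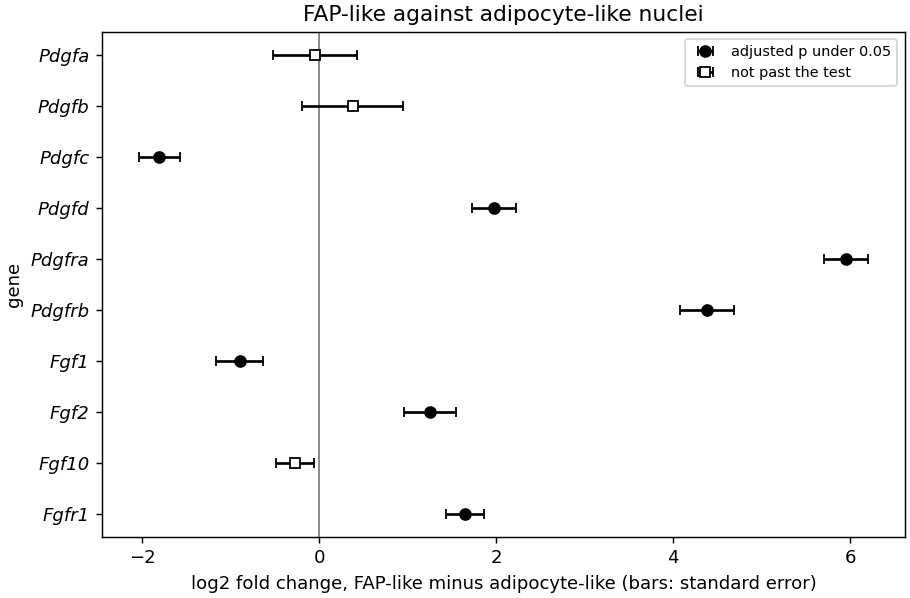
Log2 fold change of FAP-like minus adipocyte-like nuclei for the 10 genes (points) with the standard error (bars), filled where the adjusted p from edgeR was under 0.05. Pdgfra (5.95) and Pdgfrb (4.39) lay farthest to the FAP-like side and Pdgfc (-1.80) farthest to the adipocyte-like side.

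The receptors were also read together within single FAP-like nuclei thinned to equal depth. A Pdgfrb UMI was found in 13.6% and 11.5% of FAP-like nuclei with a Pdgfra UMI and in 12.9% and 10.4% of those without. An Fgfr1 UMI was found in 26.1% and 31.5% of nuclei with a Pdgfra UMI and in 27.6% and 28.0% of those without. These shares come from few UMIs per nucleus and are given as a description.

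The level in CPM and the share of a gene's UMIs that a cell type holds are different measures, because the share also follows the number and depth of the nuclei sampled. Fewer nuclei of a type and less RNA per nucleus cannot be told apart in such shares. Adipocyte-like nuclei held 87.9% and 79.5% of Pdgfc UMIs and 88.2% and 83.2% of Fgf10 UMIs. They also held 54.2% and 55.3% of Fgfr1 UMIs, although their level of Fgfr1 was below that of FAP-like nuclei. FAP-like nuclei held 78.6% and 82.1% of Pdgfra UMIs and 35.8% and 43.4% of Pdgfrb UMIs, and mural-like nuclei 25.8% and 19.0% of the latter. Endothelial-like nuclei held 54.5% and 55.5% of Pdgfb UMIs. Mesothelial-like nuclei held 47.1% and 51.0% of Fgf1 UMIs and 31.7% and 50.7% of Pdgfd UMIs, with the larger share in replicate 2, where mesothelial-like nuclei were 17.5% of the nuclei against 8.86% in replicate 1.

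**Figure D4:**
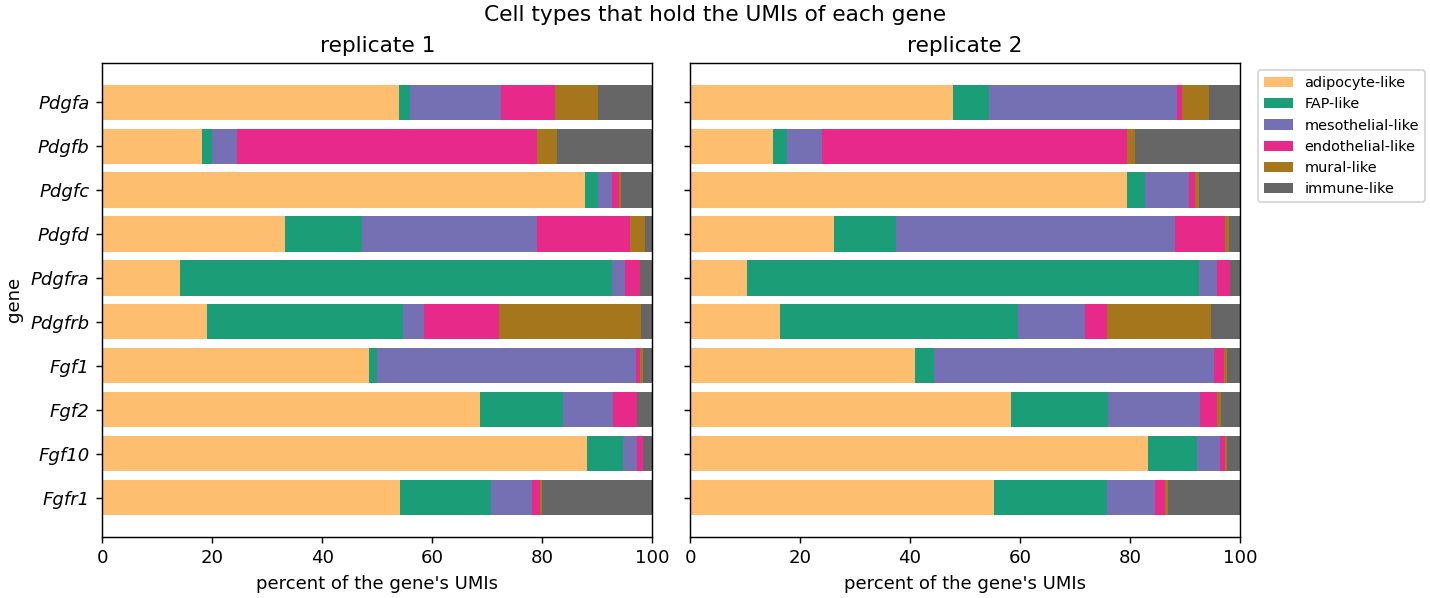
Share of each gene's UMIs (percent) held by the 6 cell types in replicate 1 (left) and replicate 2 (right). Adipocyte-like nuclei held 87.9% and 79.5% of Pdgfc UMIs, FAP-like nuclei 78.6% and 82.1% of Pdgfra UMIs and endothelial-like nuclei 54.5% and 55.5% of Pdgfb UMIs.

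Because UMIs of the adipocyte markers were found in every type, the levels of the ligands that were higher in adipocyte-like nuclei were set beside the adipocyte markers. Fgf10 in FAP-like nuclei was at 87.0% and 109% of its adipocyte-like level, where the 10 adipocyte markers summed to 19.6% and 25.1% of theirs. In mesothelial-like nuclei, Fgf10 was at 31.4% and 32.8% and the markers at 25.4% and 28.1%, and in endothelial-like nuclei Fgf10 was at 29.5% and 32.3% and the markers at 32.8% and 39.0%. In mural-like nuclei Fgf10 was at 7.06% and 36.1%, with the markers at 23.2% and 30.4%, and in immune-like nuclei at 21.4% and 35.3%, with the markers at 23.8% and 26.1%, so that in these types it was below the markers in replicate 1 and above them in replicate 2. Pdgfc in immune-like nuclei was at 75.9% and 121% of its adipocyte-like level, with the markers at 23.8% and 26.1%. Pdgfc was also above the summed markers in the other types, at 29.5% and 40.0% in FAP-like, 33.2% and 67.2% in mesothelial-like, 42.7% and 70.4% in mural-like and 33.5% and 40.6% in endothelial-like nuclei, where the markers were at 19.6% and 25.1%, 25.4% and 28.1%, 23.2% and 30.4%, and 32.8% and 39.0%. Against the markers without Ghr, which were at 43.4% and 58.1% in endothelial-like nuclei, Pdgfc was below them in that type and above them in the other 4 in both libraries. Fgf10 in FAP-like nuclei stood above the markers with and without Ghr, and Fgf10 in mesothelial-like nuclei stood near them (29.3% and 30.9% without Ghr). In mural-like nuclei of replicate 2, Fgf10 at 36.13% was just below the markers without Ghr, at 36.25%. The part of carried-over RNA in these values was not tested.

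**Figure D5:**
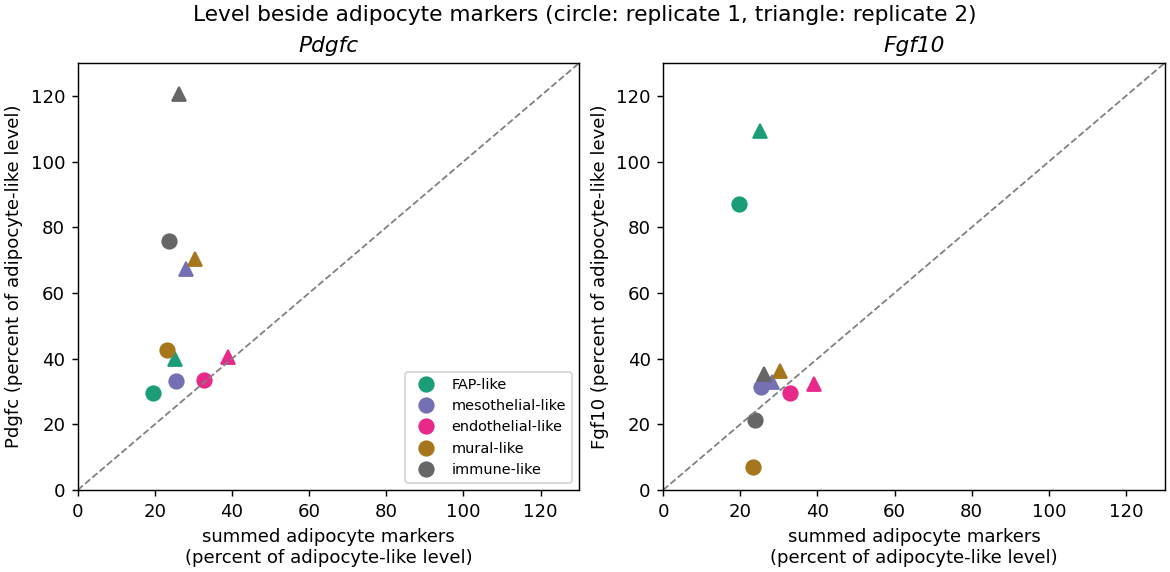
Level of Pdgfc (left) and Fgf10 (right) against the summed adipocyte markers, each as percent of the level in adipocyte-like nuclei of the same library, with circles for replicate 1, triangles for replicate 2 and a dashed line where both are equal. Fgf10 in FAP-like nuclei (87.0% and 109%) lay above the line in both libraries. Pdgfc did so in all 5 types, close to the line in endothelial-like nuclei (33.5% and 40.6%) and highest in immune-like nuclei (75.9% and 121%).

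Fgf10 was then read in subclusters drawn within each type. In mesothelial-like nuclei, Fgf10 was at 2.57 and 24.6 CPM in the largest subcluster, of 157 and 1124 nuclei, and at 248 and 182 CPM in a subcluster of 34 and 233 nuclei whose adipocyte markers reached 79.1% and 84.4% of the adipocyte-like level. In FAP-like nuclei, Fgf10 was at 198 and 253 CPM in the largest subcluster, of 228 and 1045 nuclei, where the adipocyte markers were at 10.1% and 9.57%. The same FAP-like subcluster held Pdgfra at 594 and 576 CPM. Subclusters with adipocyte markers over 50% in both libraries held 19 and 141 FAP-like, 34 and 233 mesothelial-like and 38 and 181 endothelial-like nuclei. Their mean Scrublet doublet scores were 0.271, 0.275 and 0.119, and their median depths 4207, 4305 and 2499 UMIs. The largest FAP-like and mesothelial-like subclusters had scores of 0.067 and 0.0454 at 1985 and 2038 UMIs, and the part of doublets in these values was not tested. Without the subclusters with adipocyte markers over 50%, Fgf10 differed between FAP-like and adipocyte-like nuclei by -0.17 ± 0.23, Pdgfc by -2.21 ± 0.27 and Pdgfb was higher in endothelial-like nuclei by 5.0 ± 0.26. All 17 combinations that were higher with these nuclei were still higher without them, and Fgf2 in mesothelial-like nuclei was added. The removal was chosen after the subclusters had been seen.

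Levels of different genes were compared per kilobase of exon. Whether the UMIs of a gene rise with its length was not tested, and the order can differ from that in CPM. On the scale of CPM per exon kilobase, the same gene was first in both libraries in 3 types, Fgf10 in adipocyte-like (43.0 and 45.1), Pdgfd in endothelial-like (79.3 and 68.1) and Pdgfrb in mural-like nuclei (90.8 and 47.7). In the other 3 types the first gene differed between the libraries. In FAP-like nuclei, Pdgfra was first in replicate 1 (43.3, with Fgf10 at 37.5) and Fgf10 in replicate 2 (49.4, with Pdgfra at 37.9). In mesothelial-like nuclei, Fgf1 was first in replicate 1 (119.7, with Pdgfd at 62.7) and Pdgfd in replicate 2 (93.4, with Fgf1 at 72.4). In immune-like nuclei, Fgfr1 was first in replicate 1 (33.4, with Pdgfc at 23.9) and Pdgfc in replicate 2 (33.3, with Fgfr1 at 24.0). In CPM, Pdgfra was above Fgf10 in FAP-like nuclei of both libraries (533 and 466 against 185 and 244). Fgfr1 was likewise above Pdgfc in immune-like nuclei of both libraries (426 and 306 against 160 and 223 CPM). With the whole gene span in place of exons, which counts introns that nuclear RNA retains, the mean level placed Fgf10 at rank 4 in FAP-like nuclei and Pdgfd at rank 2 in endothelial-like nuclei.

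The 10 genes lie on 7 chromosomes of GRCm39, at chr5:138961758-138983435 (Pdgfa), chr15:79880009-79899181 (Pdgfb), chr3:80943668-81121473 (Pdgfc), chr9:6168240-6379265 (Pdgfd), chr5:75311994-75358876 (Pdgfra), chr18:61178212-61218133 (Pdgfrb), chr18:38971717-39077186 (Fgf1), chr3:37402473-37464257 (Fgf2), chr13:118806327-118928672 (Fgf10) and chr8:26003670-26066824 (Fgfr1). The files give 1 count per gene, so exons and introns were not told apart.

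Of 79 other genes of PDGF and FGF signalling, listed by role, 58 passed the filter on low counts and 44 of these were higher in at least 1 cell type, which as a share is read against the 59.2% of all genes. FAP-like nuclei had 19 of the 58 higher and 2 lower, where 10.4% and 6.91% of all genes were, with a median log2 fold change of 0.09 beside -0.04 over all genes. Adipocyte-like nuclei had 10 higher and 26 lower (23.1% and 24.3% of all genes, median -0.20 beside -0.06). Immune-like nuclei had 11 higher and 19 lower (15.5% and 9.72% of all genes), and their median lay farthest from that of all genes (-0.28 beside 0.05). Mesothelial-like nuclei had 13 higher and 9 lower (13% and 6.17%, median -0.15 beside 0.01), endothelial-like nuclei 11 and 6 (9.2% and 3.93%, median -0.13 beside -0.07) and mural-like nuclei 3 and 4 (4.57% and 2.63%, median -0.07 beside -0.14).

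Among other ligands, 4 of 6 tested genes were higher in a type. Each count by role is read against the 59.2% of all genes. Fgf9, which acts on mesenchymal FGF receptors, was at 76.8 and 169 CPM in mesothelial-like nuclei (4.17 ± 0.24, adjusted p = 6.74e-21), and Fgf7, a close relative of Fgf10, was at 104 and 80.6 CPM in FAP-like nuclei (3.07 ± 0.26, adjusted p = 1.79e-14). Fgf18 was higher in FAP-like nuclei by 1.84 ± 0.44, and Fgf14, an intracellular FGF that binds no FGF receptor, was at 784 and 962 CPM in adipocyte-like nuclei (1.74 ± 0.15). Both Fgf14 and Fgf18 were also higher in mesothelial-like nuclei. Fgf7 and Fgf18 thus shared the FAP-like nuclei with Fgf10 and Fgf2, and Fgf9, Fgf14 and Fgf18 the mesothelial-like nuclei with Fgf1.

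Among other receptors, 3 of 5 tested genes were higher, a share near the 59.2% of all genes. Klb, which encodes beta-Klotho, was at 89.6 and 107 CPM in adipocyte-like nuclei against a mean of 27.0 CPM in the other types (2.21 ± 0.20, adjusted p = 2.61e-13). Fgfrl1, a receptor without a kinase domain, was higher in adipocyte-like nuclei by 1.13 ± 0.19, and Fgfr3 was higher in endothelial-like nuclei by 2.28 ± 0.58, although it passed in no type without integration, without the nuclei of highest doublet score or without the subclusters with adipocyte markers. Fgfr2, the main receptor for FGF10, was chosen for mention after its values had been seen. It was at 405 and 507 CPM in mural-like nuclei, where its level was highest, beside a mean of 282 CPM in the other types, and it passed in no type (0.50 ± 0.19, adjusted p = 0.123 in mural-like nuclei), although it passed in at least 1 type without integration.

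Of the co-receptors and binding proteins, which hold ligands at the cell surface, 13 of 14 tested genes were higher. Sdc3, a syndecan, was higher in immune-like nuclei by 4.01 ± 0.18, Flrt1 and Flrt2, membrane partners of FGF receptors, in mesothelial-like nuclei by 3.79 ± 0.32 and 3.61 ± 0.15, and Gpc6, a glypican, in FAP-like nuclei by 3.46 ± 0.16. All 4 proteases tested were higher in a type. Plau and Plat, which cleave latent PDGF-D and PDGF-C, exceeded the mean of the other types in FAP-like nuclei by 3.29 ± 0.17 and 3.16 ± 0.18, at 603 and 246 CPM and at 409 and 222 CPM. Pcsk5 was higher in FAP-like nuclei by 1.96 ± 0.16 and Furin in immune-like nuclei by 1.00 ± 0.24, and Furin passed in no type at the mitochondrial limit of 5%.

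Of the adaptors that carry the signal inside the cell, 7 of 14 were higher in a type, a share below the 59.2% of all genes. Pik3r1, the regulatory subunit of phosphoinositide kinase, was higher in adipocyte-like nuclei by 1.72 ± 0.15, Plcg1 and Nck1 in endothelial-like nuclei by 1.35 ± 0.21 and 0.95 ± 0.20, and Grb2 in immune-like nuclei by 1.26 ± 0.18. Nck1 passed in no type at the mitochondrial limit of 5%. Of the feedback and target genes of the pathway, 13 of 15 were higher in a type. Spry1, an inhibitor of receptor kinase signalling, was at 120 and 40.3 CPM in mural-like nuclei (3.16 ± 0.51). This gene was sparse, with 224 UMIs over all kept nuclei, and it was also higher in FAP-like and endothelial-like nuclei. In immune-like nuclei, 6 genes of this role were higher and 4 lower (15.5% and 9.72% of all genes), with a median log2 fold change of -0.17. Those higher included Etv1, Dusp6 and Etv5, which are induced by FGF signalling in many cells. Their differences were 2.60 ± 0.29, 2.40 ± 0.24 and 2.07 ± 0.29.

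For each gene, the genes of most similar pattern were sought among 11486 genes by the Pearson correlation of log2(CPM + 1), centred in each library, over the 12 sums of library and cell type. These points share libraries and depth, and the values are a description. The leading gene was Inmt for Pdgfra (r = 0.98), Postn for Pdgfrb (0.97), Galk2 for Fgfr1 (0.95), 2810025M15Rik for Pdgfb (0.98), Cavin1 for Pdgfd (0.95), Snx10 for Pdgfc (0.92) and Atp1b2 for Pdgfa (0.94). For the FGF ligands it was Scn7a for Fgf10 (0.98), Ppic for Fgf2 (0.98) and Gsta4 for Fgf1 (0.95). The next in order were Dpep1 and Has2 for Pdgfra, Olfm2 and Agtr1a for Pdgfrb, Lpar1 and Hpse for Fgfr1, Cd300lg and Gimap6 for Pdgfb, Id3 and Tm4sf1 for Pdgfd, Alcam and Mob3b for Pdgfc, Mark1 and Ajuba for Pdgfa, Dpyd for Fgf10, Tacc2 and Kng2 for Fgf2, and Muc16 and Nr6a1 for Fgf1.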

How the data were processed

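Reads were aligned by the authors to GRCm39 with CeleScope, and the deposited matrices hold counts, as whole UMIs per gene and called nucleus, without normalization. The annotation behind them is not given in the sources used here. Deposited barcode lists gave counts of reads, UMIs and genes, and the downsampling tables were not used. The limits of the methods (500 genes, 1000 UMIs, 15% mitochondrial UMIs) left nuclei that held 8466237 and 48068273 UMIs in replicates 1 and 2. The cell number given in the methods for these libraries equals the 7344 and 17148 called barcodes. The nuclei kept here by the stated limits, 2833 and 12225, are more than the methods give after quality control, and the step behind the difference is not given in the sources used here.

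Each nucleus was scaled to a common total and log transformed, and 1000 variable genes, without the 10 genes and their pathway, gave 30 components, which were corrected for the library by Harmony (written in numpy 2.4.6). A shared-neighbour graph (20 neighbours) was clustered with leidenalg 0.10.2 at a resolution of 0.1. A cluster was named when at least 0.5 of a type's markers, and at least 3, had a log2 fold of 1 and were seen in 5% of its nuclei, with a margin of 0.25 over the next type. The graph and this rule were settled after the clusters had been seen. Scrublet (scanpy 1.11.5) marked 1 nucleus per library and so did not separate doublets, and none were removed.

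UMIs per library and type, with at least 20 nuclei in each, were tested with edgeR 4.0.16 in R 4.3.3 (TMM, filterByExpr, quasi-likelihood test, Benjamini-Hochberg adjustment), after the script was tested on simulated data. TMM factors ran from 0.832 to 1.22, so fitted folds differ from CPM ratios. The contrast is with the mean of the log levels of the other types. The library was a block because the sums numbered alike come from 1 library, and the study names 2 mice per age. Over 15 pairs of cell types, the deviations of 11486 genes correlated between types with r from 0.151 to 0.581. Total counts differed between the libraries by a chi-square of 86.3 per degree of freedom, which is beyond counting noise, and the labels name them as replicates. P-values measure how differences between cell types varied between these 2 libraries, after the block took out the difference common to all types. Clusters and tests use the same nuclei, so p-values are no independent evidence for the types.

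The 10 genes, the pathway list and the markers were chosen with earlier results of these data known. Named in the text are the 10 genes, up to 4 genes per pathway role with the largest fold among those higher, markers, and the 3 genes most similar to each of the 10, of which 1 is not reported here. Alternatives were DESeq2 1.42.0, no filter on low counts, no library block, 15 components, no integration, a resolution of 0.3, a mitochondrial limit of 5%, the 10 genes and their pathway kept as features, removal of the 170 and 734 nuclei of highest doublet score, each replicate alone, and, added after the data were seen, removal of subclusters with adipocyte markers and of shared barcodes. Promoters and lengths are from GENCODE vM39.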

Additional observations from a re-analysis of the deposited data

How the results depend on the processing

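In every alternative fit, 10 of 10 genes were higher in at least 1 cell type. The 17 combinations of gene and cell type numbered 16 with DESeq2 and without the replicate block, both of which lost Pdgfa in mesothelial-like nuclei, and 17 or 18 otherwise. At a mitochondrial limit of 5% the 14 mural-like nuclei of replicate 1 were too few to be fitted, so Pdgfa and Pdgfrb in mural-like nuclei gave no call, while Pdgfd in FAP-like and Pdgfrb in endothelial-like nuclei were added. The 7 genes that differed between FAP-like and adipocyte-like nuclei ranged from 5 (no replicate block) to 9 (the 10 genes kept as features, where Pdgfb at 2.52 and Fgf10 at -0.57 were added). With 15 components Pdgfb was also added, at 1.89. DESeq2 lost Fgf1, and the 5% limit lost Fgf2. The other pathway genes that were higher numbered 40 to 48, against 44. The library block and its pairing moved calls over all genes from 6226 higher and 3211 lower without the replicate block to 10525 and 7459 with it.

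The difference of Pdgfa between FAP-like and adipocyte-like nuclei changed sign, from -0.04 to 0.057 at the 5% limit and 0.0082 without the subclusters with adipocyte markers. With 1 replicate left out, it ranged from -1.37 to 0.15. None of these passed, and the cause was not tested. With 1 replicate left out there is no residual spread and so no test, and 17 of 17 folds kept their sign, with 3 that moved over 1.5 times (Pdgfra and Fgf2 in FAP-like and Fgf1 in mesothelial-like nuclei). The 23 mural-like nuclei of replicate 1 limit every value of that type, and a count of 0 there allows up to 45.0 CPM.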

Other observations

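At the resolution of 0.3, the adipocyte-like nuclei were divided, and the levels of the ligands differed among the clusters. A cluster led by Cidea, Dio2 and Ucp1, of 163 and 628 nuclei, had Pdgfd at 251 and 216 CPM, and the largest adipocyte-like cluster, of 1391 and 3741 nuclei, had Pdgfd at 23.3 and 33.8 CPM. For Pdgfc, the Cidea-led cluster had 127 and 157 CPM and the largest cluster 233 and 197 CPM. For Fgf10, these clusters had 186 and 215 CPM and 233 and 239 CPM. A further cluster of 417 and 2568 nuclei, with median depths of 1546 and 1980 UMIs, stayed unnamed and had Fgf10 at 107 and 166 CPM and Pdgfd at 75.8 and 88.6 CPM. The Cidea-led cluster also stayed unnamed by the rule for markers. These clusters were chosen after their values had been seen, and no test was made.

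Among endothelial-like nuclei, Pdgfb was at 444 and 392 CPM in a subcluster of 21 and 113 nuclei and at 75.7 and 72.4 CPM in the subcluster of 38 and 181 nuclei whose adipocyte markers reached 62.6% and 58.2% of the adipocyte-like level. The former also had more Pdgfd, with 1637 and 1039 CPM against 369 and 291 CPM.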
